A study of Mus musculus with 6 samples.

Results

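The beta-crystallins measured here are the transcripts of Cryba1, Cryba2, Cryba4, Crybb1, Crybb2 and Crybb3. They were chosen by gene symbol: each of the 6 genes is annotated to 1 probe set, a group of short oligonucleotides against one transcript, and these are 6 of 22626 probe sets tested and 6 of 12393 genes with a probe set of their own. RNA came from lenses of newborn ICR mice, 3 arrays of Hsf4-null lenses and 3 of wild-type lenses, and cDNA amplified from 50 ng of total RNA was hybridized to Affymetrix mouse genome arrays. The comparison asks which transcripts depend on heat shock transcription factor 4 (Hsf4), a regulator of lens fiber cell terminal differentiation. The methods call the arrays biological triplicates. The number of animals behind each array is not stated there. Whole lenses hold both epithelium and fiber cells, so fewer cells of a type and less RNA per cell cannot be told apart.

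Crystallins are the abundant soluble proteins of the lens fiber cell, and their dense, ordered packing gives the lens its refractive power. Beta- and gamma-crystallins share a fold built of Greek key motifs, whereas alpha-crystallins belong to the small heat shock proteins and act as chaperones. The beta-crystallins are divided into acidic (A) and basic (B) members, which assemble into dimers and larger oligomers, and inherited mutations in several of their human genes cause cataract. Cryba1 encodes both the βA3- and βA1-crystallin from one transcript. In the gene order of GRCm38.p6, Cryba4 and Crybb1 are direct neighbors on chromosome 5, and so are Crybb2 and Crybb3, while Cryba1 lies on chromosome 11 and Cryba2 on chromosome 1.

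The 200 bases before the annotated start site are shown for 3 of the genes, because these windows hold the sequence motifs described next. They are RefSeq sequences of GRCm38.p6, written 5′ to 3′ on the strand of the gene, at chr11:77725294-77725493 (minus strand) for Cryba1, chr5:112252519-112252718 (minus strand) for Cryba4 and chr5:112255620-112255819 (plus strand) for Crybb1. Capitals mark every match of a heat shock element pair (TTCNNGAA), of the Maf core motif (TGCTGAC) and of a TATA box (TATAAA or TATAAG).
Cryba1: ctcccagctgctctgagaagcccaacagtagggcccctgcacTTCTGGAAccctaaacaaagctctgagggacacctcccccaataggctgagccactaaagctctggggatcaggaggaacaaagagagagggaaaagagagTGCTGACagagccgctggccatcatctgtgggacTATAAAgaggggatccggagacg
Cryba4: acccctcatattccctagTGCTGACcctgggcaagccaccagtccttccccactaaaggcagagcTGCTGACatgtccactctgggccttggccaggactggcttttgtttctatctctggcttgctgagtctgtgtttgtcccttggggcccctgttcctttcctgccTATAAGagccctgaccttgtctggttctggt
Crybb1: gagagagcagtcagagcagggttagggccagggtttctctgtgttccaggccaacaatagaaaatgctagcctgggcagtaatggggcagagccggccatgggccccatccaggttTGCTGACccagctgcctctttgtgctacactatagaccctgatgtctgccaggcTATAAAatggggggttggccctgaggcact

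Heat shock factors recognize inverted repeats of GAA, so both arrangements of a pair, GAANNTTC and TTCNNGAA, were searched in windows of 300 bases around the start site, on both strands. All 6 genes have such a window. TTCNNGAA occurred in 1 of the 6, Cryba1, and in 8.52% of 32851 windows of all genes. GAANNTTC occurred in 0 of the 6 and in 7.86% of all windows. TGCTGAC, a core motif recognized by Maf proteins, occurred in 3 of the 6 (Cryba1, Cryba4 and Crybb1) and in 4.67% of all windows, with a pair of matches in Cryba4. TATAAA occurred in Cryba1, Cryba2 and Crybb1 and in 13.6% of all windows, and TATAAG in Cryba4 and, on the other strand, in Crybb2 and in 7.43%. Counted from the annotated start site, the matches in Cryba1, Crybb1 and Cryba4 began at -23, -30 and -31. Those in Cryba2 and Crybb2 began at -3, across the start site, and at -151. The Maf and TATA motifs were chosen after the sequences were seen. A match is a run of letters and not a measured binding site.

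The targeted gene followed the labels. Whether its probes lie in the deleted part of the gene was not looked up. Hsf4 had log2 intensities of 4.26, 4.09 and 3.78 in Hsf4-null lenses, against 9.09, 9.39 and 9.56 in wild-type lenses. Deposited values are normalized by robust multichip average (RMA), a procedure that removes background, applies quantile normalization across arrays and summarizes each probe set as a single value. Correlations over all log2 values lay between 0.991 and 0.994 within groups and between 0.982 and 0.990 across groups. By this measure no array stood apart. Differences were tested with limma, in which the spread of each probe set is drawn toward that of the others. The p-values were adjusted over all 22626 by the Benjamini-Hochberg method. At an adjusted p under 0.05, 163 probe sets (0.72%) were higher and 439 (1.94%) lower in Hsf4-null lenses, 2.66% of those tested. With arrays centred on B2m, Hprt and Sdha the split was 116 higher and 1019 lower.

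In newborn lenses, beta-crystallin transcripts gave some of the brightest signals on the array, with and without Hsf4. Cryba1 was the brightest of all tested probe sets on each of the 6 arrays. Cryba2, Crybb1 and Crybb3 ranked from 2 to 5 on the Hsf4-null arrays and from 3 to 6 on the wild-type arrays. Cryba4 ranked from 12 to 17 in Hsf4-null lenses and from 12 to 16 in wild-type lenses. Crybb2 was the dimmest of the 6, at ranks 32 to 64 in Hsf4-null lenses and 42 to 59 in wild-type lenses. The summed intensity of the 6 probe sets ran from 97623 to 101027 on the Hsf4-null arrays and from 99485 to 100038 on the wild-type arrays. Probe sets differ in how well they bind their transcript, so these ranks and sums describe signal and not the number of transcripts.

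At an adjusted p under 0.05, 0 of the 6 beta-crystallins passed limma, where 2.66% of all probe sets did (0.72% higher and 1.94% lower), and their differences between Hsf4-null and wild-type lenses were small in both directions. In all, 3 were higher and 3 lower in Hsf4-null lenses, from -0.06 for Cryba4 to 0.06 for Cryba2 on the log2 scale, with a median of -0.0031. Over all 22626 probe sets the median was 0.0025, and the median size of a difference regardless of sign was 0.13, against 0.026 for the beta-crystallins. In bins by level that include beta-crystallins, this median was 0.037 for the 20 brightest and 0.039 for the 100 brightest probe sets, so small differences were shared by bright probe sets. At an unadjusted p under 0.05 the limma count was also 0 of 6, with 15.4% of all probe sets past that limit. These directions held only relative to the scaling. With arrays centred on B2m, Hprt and Sdha, the study's internal controls for PCR, all probe sets shifted by a median of -0.22, and all 6 beta-crystallins were then lower, by a median of -0.22, again with 0 of 6 past the threshold.

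**Figure D1:**
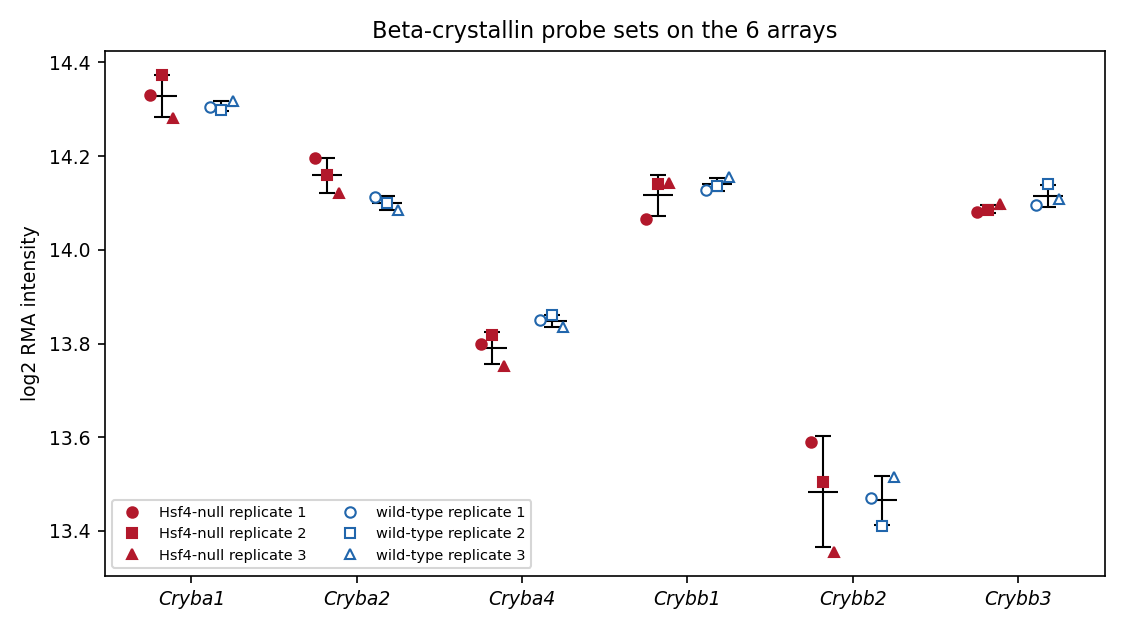
Log2 RMA intensity (vertical axis) of the 6 beta-crystallin probe sets on each Hsf4-null array (filled) and wild-type array (open), with a marker shape for each replicate number and bars at the mean ± SD (n = 3 arrays). Groups lie apart only for Cryba2, higher in Hsf4-null lenses, and for Cryba4, lower, and Crybb2 has the widest spread.

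Among the acidic members, Cryba1 had log2 intensities of 14.33, 14.37 and 14.28 in Hsf4-null lenses, against 14.30, 14.30 and 14.32 in wild-type lenses. The Hsf4-null arrays lay on both sides of the wild-type arrays. The difference was 0.02 (standard error 0.09, adjusted p = 0.936 from limma), with a 95% interval of -12.0% to 17.0% in intensity.
Cryba2, which encodes βA2-crystallin, had 14.20, 14.16 and 14.12 in Hsf4-null lenses, against 14.11, 14.10 and 14.08 in wild-type lenses. Every Hsf4-null array lay above every wild-type array, and the largest of the gaps between neighboring values lay within the Hsf4-null group. The mean was 14.16 ± 0.04 in Hsf4-null lenses and 14.10 ± 0.01 in wild-type lenses (SD, n = 3 each). This is a difference of 4.25% in intensity (log2 difference 0.06, standard error 0.09, adjusted p = 0.797 from limma), with an interval of -9.49% to 20.1%.
Cryba4, which encodes βA4-crystallin, had 13.80, 13.82 and 13.75 in Hsf4-null lenses, against 13.85, 13.86 and 13.84 in wild-type lenses. Every Hsf4-null array lay below every wild-type array. The mean was 13.79 ± 0.03 in Hsf4-null lenses and 13.85 ± 0.01 in wild-type lenses (SD, n = 3 each), a difference of -3.97% (log2 difference -0.06, standard error 0.09, adjusted p = 0.804 from limma) with an interval of -16.6% to 10.6%. After renewed quantile normalization of the arrays the log2 difference of Cryba4 was -0.013. Groups that do not overlap, 2 of the 6 beta-crystallins, were also seen in 21.1% of all probe sets, 9.37% higher and 11.7% lower in Hsf4-null lenses.

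Among the basic members, Crybb1, which encodes βB1-crystallin, had log2 intensities of 14.07, 14.14 and 14.14 in Hsf4-null lenses, against 14.13, 14.14 and 14.16 in wild-type lenses. Replicate 1 of the Hsf4-null lenses was the lowest of the 6 arrays, and the other two lay within the wild-type range. The difference was -0.02 (standard error 0.09, adjusted p = 0.928 from limma), with an interval of -14.7% to 13.4% in intensity. Without Hsf4-null replicate 1 it was 0.0016.
Crybb2, which encodes βB2-crystallin, had 13.59, 13.51 and 13.36 in Hsf4-null lenses, against 13.47, 13.41 and 13.52 in wild-type lenses. Both the highest and the lowest of the 6 arrays were Hsf4-null arrays. The mean was 13.48 ± 0.12 in Hsf4-null lenses and 13.47 ± 0.05 in wild-type lenses (SD, n = 3 each), a difference of 0.02 (standard error 0.10, adjusted p = 0.957 from limma) with an interval of -14.0% to 19.2%. Without Hsf4-null replicate 1 the difference was -0.04.
Crybb3, which encodes βB3-crystallin, had the tightest Hsf4-null values, at intensities of 17322, 17368 and 17520.1, against 17507.4, 18067.5 and 17664.6 in wild-type lenses. A single Hsf4-null array, replicate 3, lay above the lowest wild-type array. The log2 difference was -0.03 (standard error 0.09, adjusted p = 0.912 from limma), with an interval of -14.7% to 12.8%.

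**Figure D2:**
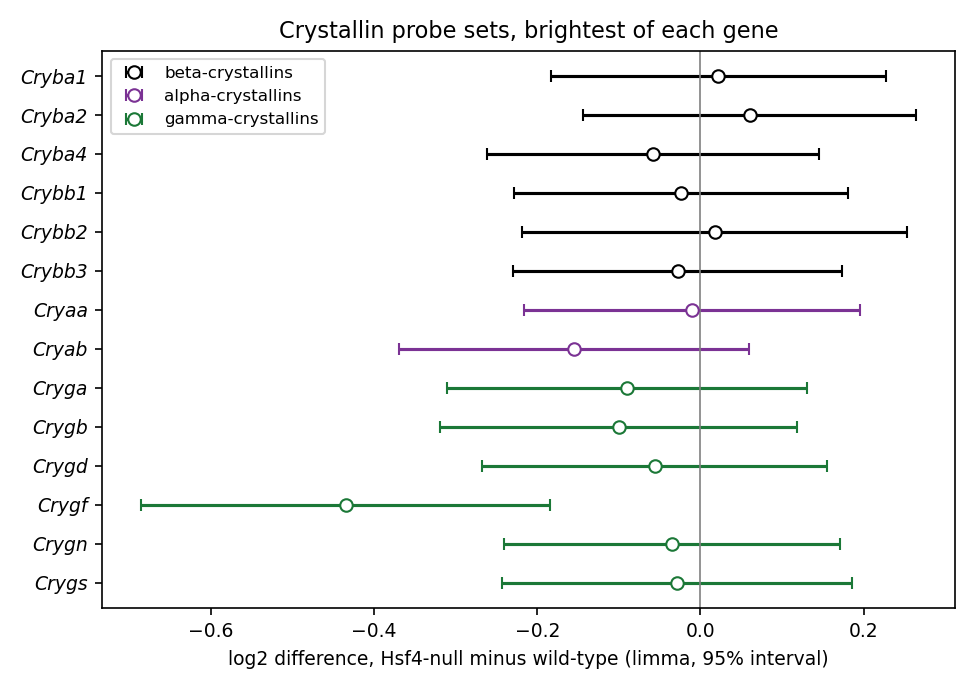
Log2 difference, Hsf4-null minus wild-type (horizontal axis), for the brightest probe set of each of 6 beta-, 2 alpha- and 6 gamma-crystallin genes, with 95% limma intervals from 3 arrays per group. The 6 beta-crystallins lie between -0.06 and 0.06 with intervals across 0, and Crygf, at -0.43, is the only gene whose interval lies on one side of 0.

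Of the direct neighbors on chromosome 5, Cryba4 and Crybb1 differed by -0.06 and -0.02, and Crybb2 and Crybb3 by 0.02 and -0.03 on the log2 scale.
By array, the mean distance of the 6 beta-crystallins from their wild-type means was 0.01, 0.02 and -0.04 on Hsf4-null replicates 1, 2 and 3, and -0.0023, -0.0048 and 0.0070 on wild-type replicates 1, 2 and 3. The Hsf4-null arrays thus lay on both sides of the wild-type arrays. On Hsf4-null replicate 1 the distances ran from -0.07 for Crybb1 to 0.12 for Crybb2, and on replicate 3 from -0.11 for Crybb2 to 0.02 for Cryba2. The widest distance on a wild-type array was -0.05, for Crybb2 on replicate 2. Wild-type distances are kept smaller by this measure, because the same arrays set the means. The SD between arrays was larger among Hsf4-null than among wild-type lenses for 5 of the 6 genes, all but Crybb3, and was 4.28 times as large for Cryba1. With 3 arrays per group this ratio of spreads was not tested. The share of all probe sets with a larger SD in Hsf4-null lenses was not counted, so 5 of 6 has no background beside it.

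The order of the 6 signals varied between arrays of both groups, and was the same on Hsf4-null replicate 3 and wild-type replicate 1. On all 6 arrays Cryba1 came first, and Cryba4 and Crybb2 came last in that order. Cryba2 was at place 2 on Hsf4-null replicates 1 and 2 and at place 3 on replicate 3, whereas it was at place 3 on wild-type replicate 1 and at place 4 on replicates 2 and 3. In wild-type lenses the means of Crybb1, Crybb3 and Cryba2, at 14.14 ± 0.01, 14.12 ± 0.02 and 14.10 ± 0.01 (SD, n = 3 each), followed each other by steps no larger than about these SDs. Cryba1, Cryba4 and Crybb2 stood off from their neighbors in the order by more than the SD.
Differences between a pair of probe sets on the same array are not moved by a constant added to all log2 values of that array, but can be moved by a renewed quantile normalization. Cryba2 exceeded Cryba4 by 0.40, 0.34 and 0.37 on the Hsf4-null arrays, against 0.26, 0.24 and 0.25 on the wild-type arrays. The distance between both genes was larger on every Hsf4-null array than on any wild-type array, by 0.12 on average. Cryba1 minus Cryba4 was likewise larger on every Hsf4-null array, at 0.53, 0.55 and 0.53, against 0.45, 0.44 and 0.48, and so was Cryba2 minus Crybb3, at 0.12, 0.08 and 0.02, against 0.02, -0.04 and -0.02. These were 3 of 15 pairs, or 20%. Among pairs of the other 94 probe sets within the 100 brightest, 19.9% did not overlap either, so the share of such pairs was near the background.

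**Figure D3:**
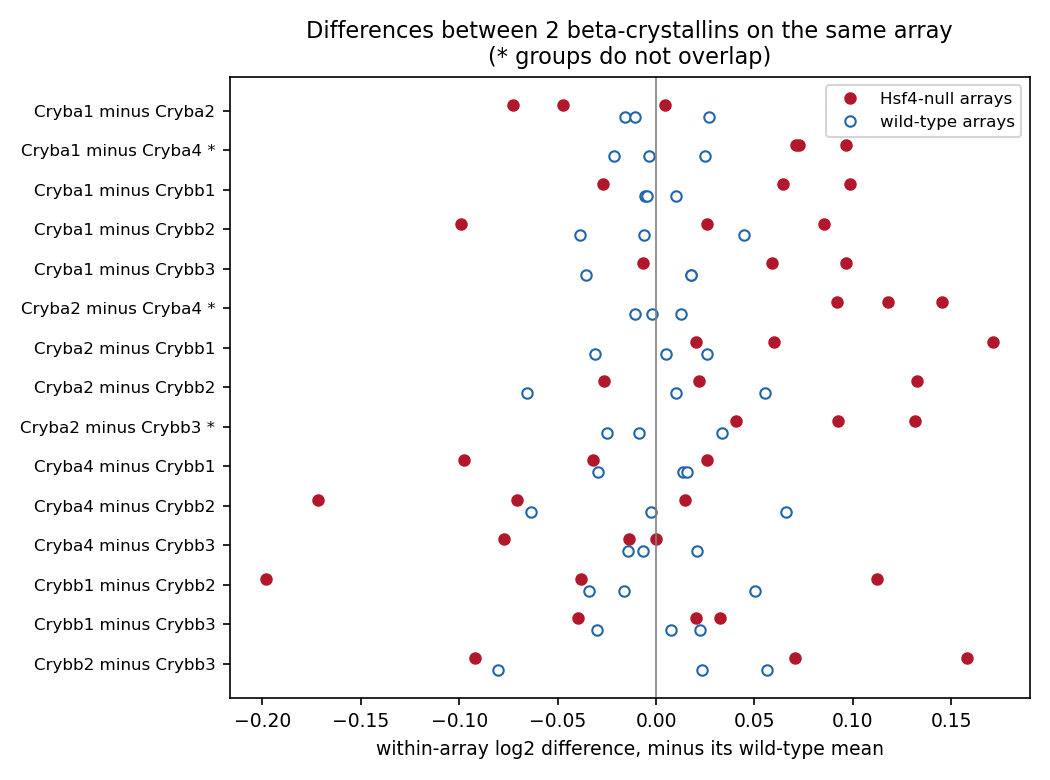
Log2 difference between 2 beta-crystallin probe sets on the same array, minus the wild-type mean of that difference (horizontal axis), for all 15 pairs, with Hsf4-null arrays as filled and wild-type arrays as open points. Asterisks mark the 3 pairs whose groups do not overlap, of which Cryba2 minus Cryba4 lies farthest apart, by 0.12 on average.

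Arrays lay close together at the top of the scale, which quantile normalization sets in part by bringing the arrays to 1 distribution. The procedure thus limits how far Cryba1, at rank 1 on every array, can differ between groups. The highest value on an array ran from 14.28 to 14.37 on the log2 scale, and the values at rank 50 from 13.42 to 13.47, although different probe sets may hold a given rank. Of the 100 brightest probe sets, 0 passed limma and 18 had groups that do not overlap, and of the 500 brightest 5 passed, all lower in Hsf4-null lenses. The SD between arrays of a group had a median of 0.04 among the 100 brightest and of 0.16 over all probe sets. For the beta-crystallins it was 0.02 for Crybb3, 0.03 for Cryba1, Cryba2, Cryba4 and Crybb1, and 0.09 for Crybb2. The table used here holds no flags for saturated probes, and whether signal at this height still follows the amount of transcript was not tested.
Because limma shares the spread across probe sets, its standard errors for these genes, 0.09 to 0.10, were larger than their own spread alone would give. With a spread that follows the level (trended and robust), the interval for Cryba2 was -2.32% to 11.3% and for Cryba4 -10.3% to 2.76%, and 0 of 6 passed. The methods' t-test, which uses each probe set's own spread, gave Cryba4 an unadjusted p of 0.0480, with 12.9% of all probe sets past that limit. Its Benjamini-Hochberg adjusted p was 0.384, and 0 of 6 passed after that adjustment. Over the 6 genes the limma intervals reached from -16.6% to 20.1%.

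**Figure D4:**
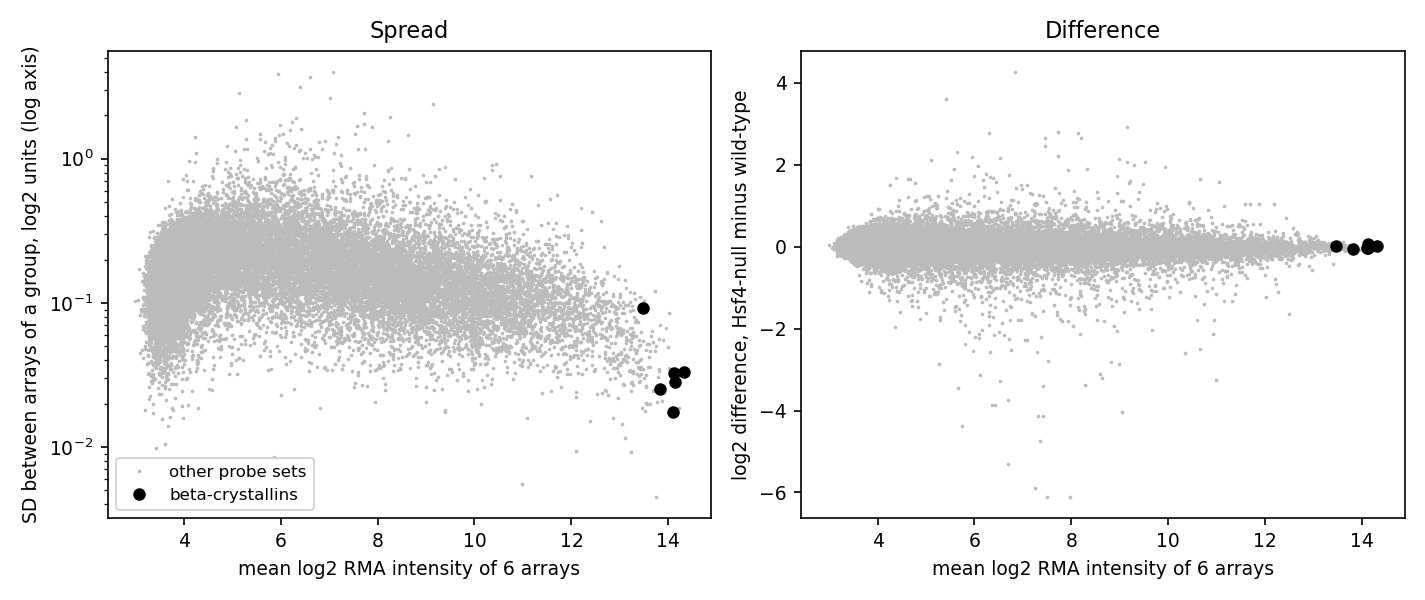
SD between arrays of a group (left, log axis) and log2 difference, Hsf4-null minus wild-type (right), against the mean log2 RMA intensity of 6 arrays for all 22626 probe sets (gray) and the 6 beta-crystallins (black). Both measures narrow toward the right end of the scale, where the beta-crystallins lie.

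Over the 6 arrays the beta-crystallins did not rise and fall as one group. The correlation between their log2 values was above 0 for 8 of 15 pairs, with a median of 0.13, from -0.81 for Cryba2 with Crybb1 to 0.68 for Cryba1 with Crybb2. All points share the arrays and their normalization, and these values are descriptions over 6 arrays. The genes whose values were most like the mean profile of the 6 beta-crystallins were Pde12, Fbxo3, Mpp6, Rps27l and Rrp9, with correlations from 0.987 to 0.972 over the 6 arrays, among 10408 probe sets ranked. The profile they match is mostly the low value of Hsf4-null replicate 3, and 83 probe sets correlated above 0.9.

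Other crystallins lay at the same height of the scale. In all, 10 of the 20 brightest probe sets were annotated to a single crystallin gene, 5 of them beta-crystallins. Of the alpha-crystallins, small heat shock proteins, 0 of 2 genes passed, with differences of -0.01 for Cryaa and -0.15 for Cryab. Of 6 measured gamma-crystallin genes 0 passed, with differences from -0.43 for Crygf (standard error 0.11, adjusted p = 0.0955 from limma) to -0.03 for Crygs and a median of -0.07, against a median of -0.0031 for the beta-crystallins. Of 6 other measured genes with crystallin in their name, outside the lists of the alpha-, beta- and gamma-crystallin families, 0 passed, with a median of 0.21. Whether the 3 families differed from each other was not tested. The bright probe set shared by Crygb and Crygc was left out because it names no single gene.
Of 24 measured transcription factors and cofactors linked to crystallin genes, 0 rose and 2 fell, where 96 of 12393 genes rose and 261 fell. The 2 were Hsf4 itself, the targeted gene, and Prox1, a homeodomain protein of fiber differentiation, which fell by 0.83 (standard error 0.13). Pax6, the paired domain regulator of lens development, had a difference of 0.17, and Six3, a homeodomain factor, one of 0.15, and neither passed. Maf and Sox1, both activators of crystallin genes, were dim, at 4.23 and 3.62 in Hsf4-null lenses and 4.63 and 3.96 in wild-type lenses, below every array median (5.22 to 5.38), and did not pass.
The list of fiber genes, like the others, was chosen with earlier results of these data known. It holds structural and membrane genes beside others, such as Dnase2b, a nuclease, and Cdkn1b. Among all 12393 genes 261 fell and 96 rose. Of the 16 measured genes of this fiber list 8 fell and 1 rose, with a median of -0.64. The log2 differences of those that fell farthest were -4.12 for Hspb1, a small heat shock protein, -3.27 for Actn2, an actinin, -1.65 for Bfsp1, the gene of the beaded filament protein filensin, and -1.34 for Tdrd7, an RNA granule protein, while that of Hopx was 1.58. Mip, the abundant membrane channel of fibers, was at 13.05 ± 0.17 in Hsf4-null lenses and 13.20 ± 0.05 in wild-type lenses (SD, n = 3 each) and did not pass, and was picked with its values known. Of 13 epithelial genes 0 passed. Of 73 measured markers of retina, cornea and skin, mesenchyme, pigment cells, vessels, macrophages and blood, 2 rose (Col1a1 and Twist1, both mesenchymal) and 0 fell. Twist1 was dim, at 4.92 in Hsf4-null and 3.92 in wild-type lenses. The other 10 of 12 mesenchymal genes did not pass, down to -0.13 for Prrx1. Means lay below every array median for 9 of 13 retina, 7 of 8 cornea and skin, and 8 of 14 macrophage markers. They did for 5 of 12 mesenchymal, 4 of 9 pigment cell, 3 of 11 vessel and 4 of 6 blood markers. The median difference of each of these 7 lists was above 0, from 0.20 for mesenchyme to 0.53 for pigment cells. The summed intensity of vessel markers was 2446 to 2522 on Hsf4-null arrays and 1701 to 2345 on wild-type arrays. That of blood markers was 3359 to 3848 on Hsf4-null arrays and 2251 to 3199 on wild-type arrays. The brightest blood markers did not move together: the log2 difference was 1.07 for Hbb-b2 and -0.05 for Hba-a2, and neither passed. In the other 5 lists the sums of the groups overlapped. Those of retina markers varied widely between arrays, from 346 to 1658 on Hsf4-null arrays and from 353 to 1302 on wild-type arrays. The part of these 7 tissues in the values above was not tested.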

How the data were processed

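Gene expression was measured in 3 Hsf4-null and 3 wild-type newborn mouse lens samples, grouped by their titles. The deposited values are linear intensity, made by the authors from Affymetrix CEL files with RMA, whose software is not stated. They were turned into log2 values. The table lists 22690 probe sets, of which 64 array controls were removed, and dim probe sets were kept. The test was lmFit and eBayes of limma 3.58.1 (R 4.3.3) on both groups without a block, two-sided, with Benjamini-Hochberg adjustment, a threshold of 0.05 and 95% intervals. The platform annotation gave 20380 probe sets 1 symbol, 691 several and 1555 none, and 20351 symbols were updated to RefSeq. A gene in a list was represented by its brightest probe set.
The genes and lists were chosen with earlier results of these data known. Named are the 6 beta-crystallins and Hsf4, up to 4 genes past the threshold per list and direction, 5 transcription factors, and the 5 most similar profiles among probe sets above the median. The procedures were checked on simulated data. Precision is limited by the number of arrays. RMA includes quantile normalization between arrays. SAM, part of the methods' filter, was not run.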

Additional observations from a re-analysis of the deposited data

How the results depend on the processing

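In 15 of the 16 alternatives 0 beta-crystallins passed. The exception is the methods' t-test without adjustment, in which 1 passed, Cryba4, and 2912 of all probe sets did (1204 higher and 1708 lower). Against 602 probe sets from limma (163 higher, 439 lower), that t-test with Benjamini-Hochberg adjustment gave 85 (22 higher, 63 lower), the trended and robust variance gave 246 higher, and the brightest probe set of each gene gave 366 (100 higher, 266 lower). Arrays centred on B2m, Hprt and Sdha gave 1135, of which 1019 were lower. B2m itself was 0.53 higher in Hsf4-null lenses. In that setting the median of the beta-crystallins was -0.22, and Cryba1, Cryba2 and Crybb2 turned to -0.20, -0.16 and -0.20. This centring moves the difference of every probe set by the same amount, set by the control genes. Their own differences were 0.53 for B2m, 0.15 for Hprt and -0.02 for Sdha. Why B2m was higher was not tested. Leaving out single arrays gave 321 to 562 probe sets in all, 94 to 177 higher and 226 to 385 lower, with the lowest total without Hsf4-null replicate 3, 335 without wild-type replicate 2 and 358 without wild-type replicate 3. The difference of Crybb1 then ran from -0.037 to 0.0016, that of Crybb2 from -0.035 to 0.082 and that of Cryba1 from -0.00039 to 0.045. With the replicate number as a block, 382 probe sets passed (268 lower) and 0 beta-crystallins. Samples of the same number share only that number: their deviations from the group means correlated at 0.25, -0.21 and -0.08. Renewed quantile normalization left Cryba1, at rank 1 on every array, with no difference, and gave -0.013 for Cryba4 (main value -0.058) and 0.077 for Cryba2 (main value 0.060), so the distances between these genes depend on it too. The remaining alternatives kept the direction of all 6 genes.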
